A study of Mus musculus with 5 samples.

Results

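The cells described here are 1075 of the 4632 cells of uninjured mouse hindlimb muscle that passed the filter, 23.2% of them (exact 95% interval 22 to 24.5%). A cell was included when at least 4 of 8 interferon-inducible genes, Ifi211, Ifi205, Ifi207, Ifi204, Ifi203, Rtp4, Irgm1 and Iigp1, each had 1 or more unique molecular identifiers (UMIs, the count of captured RNA molecules). The other 3557 cells of the same library served as the comparison. Every cell had 350 to 8000 detected genes, under 20% of UMIs on mitochondrial genes and at least 1000 UMIs. The working name of these cells was interferon-responsive progenitors. Levels are given as CPM, UMIs of a gene per 1000000 UMIs of the cells summed. Interferon-stimulated genes outside the rule, without Ifitm3, summed to 1223 CPM in these cells and to 715 in the other cells. In the 356 of the 1075 cells (33.1%) that met the rule with genes of the Ifi200 family alone the sum was 797 CPM. Because every cell that met the rule held a gene of that family, the cells are called Ifi200-rich below.

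The study followed cells of the Prx1 lineage in skeletal muscle through bone repair by droplet single-cell RNA sequencing. The mice were Prx1Cre;mTmG on a C57Bl/6 background, 10 to 14 weeks old, and GFP+ cells were sorted from muscle of 2 pooled mice per library. Prx1-Cre acts in the limb mesenchyme, and the reporter turns green for good after recombination, so GFP marks an origin and not a present cell state. The series has 5 libraries, all of this genotype: uninjured muscle (day 0, d0), days 3 and 5 after a tibial fracture, and days 3 and 5 after polytrauma, a fracture with muscle injury. The d0 mice carried the reporter and Cre like all others and had no injury. The d0 library held 5653 barcodes and 18247307 UMIs, and the median over the 4632 cells was 3640 UMIs. Each condition had 1 library, so no p-value was computed. Every interval is a 95% interval of counting error only: UMIs were drawn from cells of a single pool, and differences between mice cannot be seen. Of the 5653 barcodes, 405 also occurred in the library of day 3 after fracture and 525 in that labelled day 5 after fracture. By a stricter count (a barcode without at least 10 times the UMIs of its counterpart in another library), 85 of the 4632 cells were shared, 15 of them Ifi200-rich. Leaving these 85 out moved none of the gene lists or the share of Ifi200-rich cells beyond its interval.

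Interferons are secreted proteins that warn cells of infection. Type I interferons bind the receptor pair Ifnar1 and Ifnar2, interferon gamma binds Ifngr1 and Ifngr2, and the Jak kinases then activate transcription factors, Stat2 and Irf9 among them, that switch on interferon-stimulated genes at a DNA element called ISRE. The Ifi200 genes encode a mouse family of nuclear proteins with a DNA-binding HIN domain, several of which also carry a pyrin domain. Irgm1 and Iigp1 are immunity-related GTPases that act against microbes living in vacuoles, and Rtp4 is an interferon-induced chaperone of membrane receptors. Fibro-adipogenic progenitors, the mesenchymal progenitors of muscle (FAP/MP), support the regeneration of muscle fibres and can form fibrous and fatty tissue.

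The 5 Ifi200 genes of the rule lie together on chromosome 1, on the minus strand, within 308 kb (chr1:173723427-174031810, GRCm38, positions from GENCODE M21). In order they are Ifi207 (chr1:173723427-173741747), Ifi204 (chr1:173747293-173766943), Ifi211 (chr1:173896345-173913046), Ifi203 (chr1:173920407-173942672) and Ifi205 (chr1:174011998-174031810). Mndal, another member of the family (chr1:173849126-173942491), overlaps Ifi211 and Ifi203 on the same strand. These genes are close copies of each other, so their reads can be shared between them, and the split of counts among Ifi211, Ifi203 and Mndal is uncertain. Irgm1 lies at chr11:48861968-48871683 (minus strand) and Rtp4 at chr16:23520291-23614222 (plus strand). All 8 genes of the rule are protein-coding.

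Promoter sequence (RefSeq, GRCm38.p6, 250 bases before to 50 bases after the annotated start) was present for 5 of the 8 genes: Ifi211, Ifi205, Ifi207, Ifi203 and Irgm1. Each of the 5 held the core of an ISRE, the letters GAAA, any 2 bases and GAAA again, searched on both strands; of all 27025 genes with a promoter in the table, 3.99% did. Windows of 30 bases around that match are shown because the 4 Ifi200 windows are alike beyond the motif, along with those of 2 genes that stood high in the same cells, Ifit1 and Cxcl10. Capitals mark the match, and each sequence runs 5′ to 3′ on the strand of its gene.
Ifi211, chr1:173913064-173913093, minus strand: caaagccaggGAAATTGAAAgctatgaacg
Ifi205, chr1:174031870-174031899, minus strand: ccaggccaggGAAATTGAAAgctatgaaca
Ifi207, chr1:173741831-173741860, minus strand: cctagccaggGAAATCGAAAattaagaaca
Ifi203, chr1:173942508-173942537, minus strand: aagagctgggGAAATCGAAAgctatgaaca
Irgm1, chr11:48871431-48871460, minus strand: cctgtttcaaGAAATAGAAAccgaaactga
Ifit1, chr19:34640775-34640804, plus strand: caggcttcagTTTCACTTTCcagtctcagt
Cxcl10, chr5:92349083-92349112, minus strand: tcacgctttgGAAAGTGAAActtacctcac
In Ifit1 the match is to the opposite strand. Counted from the RefSeq start, the match shown ended 27 bases before it in Ifi211, 31 in Ifi207, 25 in Ifi203, 20 in Irgm1 and 124 in Ifi205. That start differs from the end of the GENCODE gene given above in 4 of the 5 genes. It lies 263 bases inside the gene in Irgm1, 180 in Ifi203 and 55 in Ifi205, and outside it in Ifi207. The windows of Irgm1 and Ifi203 therefore fall within their GENCODE genes. Irgm1 and Ifit1 each held a second upstream match, ending 14 and 75 bases before the RefSeq start, and Ifi205 held one past its start on the opposite strand. The letters TTCNNNGAA, the core of the GAS element of the interferon gamma response, which reads the same on both strands, were in 0 of the 5 promoters and in 9.55% of all genes. A match of letters is a description and does not show that a factor binds there.

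The number of the 8 genes detected fell off steadily over the d0 cells, with no second peak at the high end. 0 genes were found in 1389 cells, 1 in 897, 2 in 710 and 3 in 561. Above the threshold there were 479 cells with 4 genes, 303 with 5, 162 with 6, 100 with 7 and 31 with all 8. The 479 cells just inside the threshold and the 561 just outside it had medians of 4076 and 3743 UMIs. The rule thus set a limit on a range of numbers without a gap. Genes can be missed at this depth, so these numbers do not show whether the cells form a cluster, which was not tested.

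**Figure D1:**
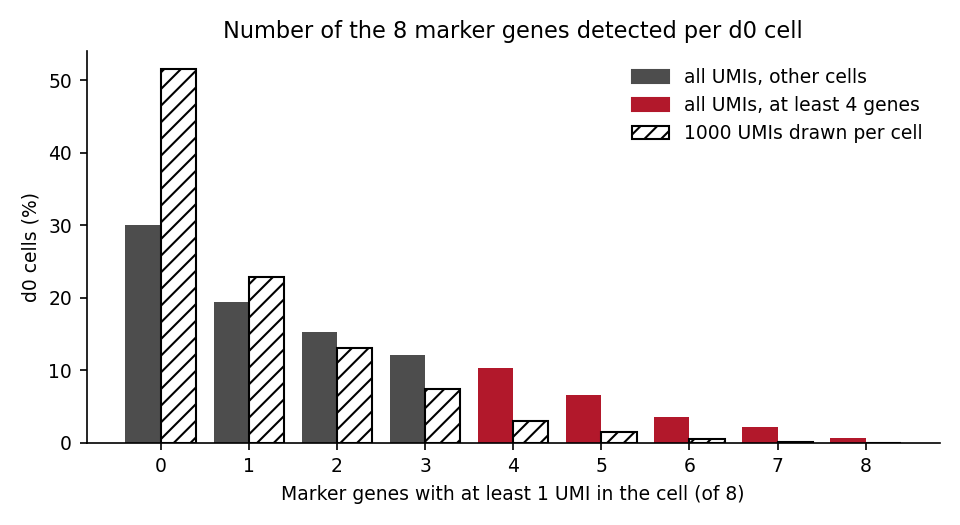
Percent of the 4632 d0 cells (y axis) by the number of the 8 marker genes with at least 1 UMI (x axis). Filled bars use all UMIs (red, at least 4 genes) and hatched bars 1000 UMIs drawn from each cell. The bars fall from 30.0% at 0 genes to 0.669% at 8, without a second peak.

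Detection depended on depth. The Ifi200-rich cells had a median of 4054 UMIs and 1468 genes, against 3487 UMIs and 1340 genes in the other cells. The share of cells that met the rule was 11.2% at 1000 to 2000 UMIs, 15.7% at 2000 to 3000, 26.7% at 3000 to 4000, 30.3% at 4000 to 6000 and 24.9% at 6000 to 10000. With 1000 UMIs drawn from each cell, 241 cells met the rule (5.20%, interval 4.58 to 5.88%). Then the share did not increase with depth: it was 5.91% in cells of 1000 to 2000 UMIs (4.33 to 7.86%) and 6.99% at 3000 to 4000. In deeper cells it was lower, 4.09% at 4000 to 6000, 1.34% (0.435 to 3.09%) at 6000 to 10000 and 0% of the 26 cells above 10000. The median share of mitochondrial UMIs was 2.55% in the Ifi200-rich and 3.43% in the other cells.

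Ifi205 was the most abundant of the 8 genes in the Ifi200-rich cells, at 1036 CPM, followed by Ifi211 at 724, Ifi203 at 566, Ifi207 at 409, Ifi204 at 390, Irgm1 at 209, Iigp1 at 173 and Rtp4 at 118. In the other cells the same genes stood at 183, 113, 56.2, 59.6, 63.5, 30.9, 13.3 and 11.0 CPM. In 3' UMI data a transcript gives 1 count whatever its length, but reads shared between the Ifi200 copies leave the order among them uncertain. Ifi211 and Ifi205 had a UMI in 89.0% and 88.8% of the Ifi200-rich cells, Iigp1 in 26.0% and Rtp4 in 30.9%. Iigp1 lies apart from the others, at chr18:60376027-60392634 on the plus strand. All these values follow from the rule and are a description of what it chose.

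The 8 genes were also read with each gene left out of the choice, the cells being picked by at least 4 of the other 7. The 8 were chosen together with results of these data known, so this too is a description and no independent support. Each of the 8 genes was more frequent in cells picked in this way than in the rest. Ifi211 had a UMI in 82.7% of 682 picked cells and in 31.9% of the rest, a CPM ratio of 2.22 on the log2 scale (interval 2.14 to 2.30). Iigp1 had a UMI in 22.1% of 1022 picked cells (19.6 to 24.8%) and in 4.16% of the rest (3.53 to 4.86%), with a log2 ratio of 2.78. Irgm1 stood at 39.6% against 11.2%, and Rtp4 at 25.6% against 5.28%. The lowest log2 ratio of the 8 was that of Ifi204, 1.95. With 1000 UMIs per cell the log2 ratios were 2.10 for Ifi207 to 3.12 for Iigp1. Cell type moved with them, as the next paragraphs show, and its part in these ratios was not tested.

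**Figure D2:**
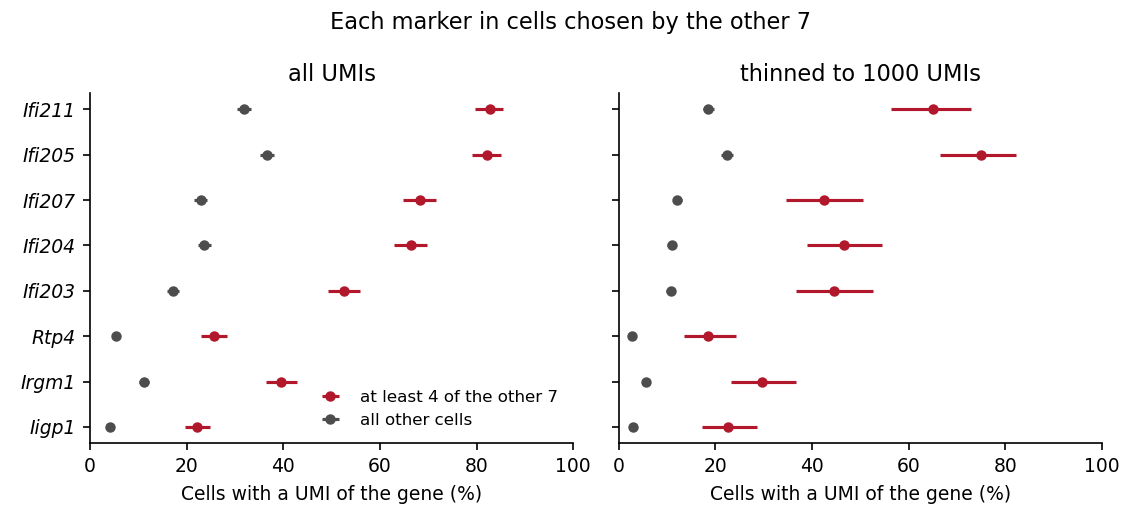
Percent of d0 cells with a UMI of each gene (x axis) in cells that held at least 4 of the other 7 genes (red) and in all other cells (grey), with all UMIs (left) and with 1000 UMIs drawn per cell (right). Bars are exact 95% intervals. The red point lies to the right of the grey point for all 8 genes on both sides.

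Most of the Ifi200-rich cells were FAP/MP-like. Cells were classed by at least 3 of 5 markers: Prrx1, Cxcl12, Pdgfra, Ly6a and Cd34 for FAP/MP, with corresponding lists for tenocytes and pericytes. Of 2417 FAP/MP-like cells 790 met the rule, 32.7% (30.8 to 34.6%). Of 432 pericyte-like cells 2 did, 0.463% (0.0561 to 1.66%), and of 331 tenocyte-like cells 0 (3 counts, the limit of a count of 0, would be 0.906%). These classes were not shallower: their medians were 3795 UMIs for FAP/MP-like, 4303 for pericyte-like and 4076 for tenocyte-like cells. The other Ifi200-rich cells were 260 of 1348 cells that met no list (19.3%, median 2702 UMIs) and 23 of 104 that met more than 1 list. FAP/MP-like cells thus made up 73.5% of the Ifi200-rich cells and 45.7% of the others. At 1000 UMIs per cell the shares that met the rule were 6.37% of FAP/MP-like and 6.38% of unclassed cells, so the difference between these 2 classes was not seen at equal depth, and 0 of the pericyte-like and 0 of the tenocyte-like cells met it.

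The 8 genes were low in pericyte-like and tenocyte-like cells. Ifi205, at 541 CPM in FAP/MP-like cells, stood at 18.2 CPM in pericyte-like cells (12.6 to 25.5) and at 10.6 in tenocyte-like cells (6.05 to 17.2). Ifi211 had a UMI in 53.5% of FAP/MP-like cells, and in the pericyte-like and tenocyte-like classes in 3.01% and 3.93%. Irgm1 differed less between the classes, with 87.5 CPM in the FAP/MP-like class against 21.4 CPM for pericyte-like and 29.1 CPM for tenocyte-like cells. The shares in these mural and tendon classes serve as the background of detection, and those of the FAP/MP-like cells lay far above them for each of the 5 Ifi200 genes.

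Markers of immune and endothelial cells were low in the Ifi200-rich cells. The 7 hematopoietic markers summed to 10.1 CPM there and to 53.5 in the other cells. In the Ifi200-rich cells 3 of them were at 0, and the most abundant, Cd68, stood at 6.94 against 6.55 CPM. Cd74 gave 393 and Lyz2 157 of the 694 UMIs in the other cells. Cd74 had a UMI in 0.618% of the other cells and 0.465% of the Ifi200-rich cells, so few cells carried most of the higher sum. The 5 endothelial markers summed to 9.17 and 12.7 CPM, with 1 at 0 in the Ifi200-rich cells. Pecam1, the most abundant there, stood at 4.70 against 3.70 CPM. With 1000 UMIs per cell, at least 2 hematopoietic markers were held by 0 of 1075 Ifi200-rich cells (3 counts would be 0.279%), and 1 held at least 2 endothelial markers (0.0930%). In the other cells 7 of 3557 (0.197%) and 4 of 3557 (0.112%) did, so these shares could not be told apart at this depth. The class II antigen presentation genes, which mark immune cells, summed to 3.80 CPM in the Ifi200-rich and 53.4 CPM in the other cells. Cd74 is in this list too, so its counts enter both sums. The 4 perineurial markers stood at 30.4 against 57.3 CPM. The tenocyte markers summed to 259 against 3113 CPM and the pericyte markers to 120 against 935, so RNA of these types was lower but present.

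Outside the rule, the 14 genes that stood highest in the Ifi200-rich cells included Ifit1, Oasl2 and Phf11d, the Ifi200 gene Mndal, and 4 chemokines, Cxcl10, Ccl7, Ccl8 and Ccl2. Of 12246 genes with at least 20 UMIs, 227 (1.85%) were at least 2-fold higher in the Ifi200-rich cells and 1535 (12.5%) at least 2-fold lower, and the median log2 ratio over all was -0.15. Because FAP/MP-like cells were enriched by the rule, the main ratios are given a second time with both sides limited to cells with at least 3 FAP/MP markers (813 against 1697 cells). There 132 of 11123 genes (1.19%) were 2-fold higher and 665 (5.98%) 2-fold lower, with a median of -0.17.

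Ifit1, which binds foreign RNA ends, had the highest ratio of the 14 genes that the naming rule gave: 100 CPM in the Ifi200-rich cells (91.2 to 110) and 8.33 CPM in the others (6.83 to 10.1). Its log2 ratio was 3.59 (3.28 to 3.91), and 3.24 among FAP/MP-marked cells. It was carried by few cells. Ifit1 had a UMI in 145 of the 1075 cells (13.5%), up to 31 UMIs in a cell, and the 11 cells with the most held 33.5% of its counts. Oasl2, of the oligoadenylate synthetase-like proteins, stood at 35.6 against 8.41 CPM, and Phf11d at 44.3 against 11.3; their log2 ratios among FAP/MP-marked cells were 1.56 and 1.40. Mndal stood at 136 against 32.7 CPM (1.42 among FAP/MP-marked cells), with the reservation on overlapping genes above.

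Cxcl10, which draws T cells, and the monocyte-attracting Ccl2, Ccl7 and Ccl8 were the chemokines among the 14. Cxcl10 stood at 296 CPM in the Ifi200-rich cells and 79.0 in the others, a log2 ratio of 1.91 (1.79 to 2.03) and of 1.62 among FAP/MP-marked cells. Ccl7 stood at 1574 against 454 CPM, Ccl8 at 105 against 28.3 and Ccl2 at 2021 against 685. Ccl7 had a UMI in 59.8% and 33.5% of cells, and Ccl2 in 55.8% and 29.4%, so unlike Ifit1 both were widespread on either side. Cxcl10, in 26.5% and 11.2% of cells, and Ccl8, in 21.4% and 6.83%, were less so. The chemokine list did not include Ccl8. Of its 11 genes with enough UMIs, 7 were at least 2-fold higher (1.85% of all genes were) and 0 lower (12.5% of all genes). Their median log2 ratio was 1.12. Limited to FAP/MP-marked cells the count was 4 of 11, beside 1.19% of all genes, and the median 0.46. Cxcl9, an interferon gamma target, stood at 31.8 against 3.78 CPM, and Cxcl1, the most abundant chemokine, at 5012 against 2304.

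The remaining genes named as higher were not chosen for any link to interferon. Hmox1, heme oxygenase, stood at 929 against 316 CPM (log2 ratio 1.55, and 1.25 among FAP/MP-marked cells). Casp4, an inflammatory caspase, stood at 154 against 49.97 CPM and Noct, a circadian phosphatase, at 85.2 against 27.5. Tfpi2, a protease inhibitor, stood at 111 against 30.8, Fam111a, a protease that restricts viruses, at 107 against 32.7 and the transporter Slc10a6 at 53.3 against 13.9. All 14 had a lower level in the other cells also when both sides were FAP/MP-marked, with log2 ratios of 1.11 for Ccl2 up to 3.24 for Ifit1.

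The 10 genes that stood lowest in the Ifi200-rich cells included genes known from tendon and from smooth muscle. Fmod, a tendon proteoglycan, stood at 97.1 CPM against 1661 (log2 ratio -4.10) and Chad, a matrix protein of cartilage and tendon, at 31.8 against 468. Acta2, smooth muscle actin, stood at 255 against 3154 CPM, Tagln at 109 against 1545, Myh11 at 52.1 against 660 and Pln at 6.26 against 119. Apold1, Rbpms2, Gm13889 and Bcam completed the 10, with log2 ratios from -4.34 to -3.75. Among FAP/MP-marked cells these ratios came closer to 0, Acta2 to -0.67 and Fmod to -1.63. Pericyte-like and tenocyte-like cells made up 12.1% and 9.31% of the other cells, and 0.186% and 0% of the Ifi200-rich cells.

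The interferon pathway was then read by the roles of its members. Ligands were at or near 0: of 9 interferon genes, Ifng had 1 UMI in the Ifi200-rich cells and 0 in the others, and the other 8 had 0 in both. Receptors differed little. Ifnar2 stood at 36.5 against 23.4 CPM (log2 ratio 0.64, and 0.63 among FAP/MP-marked cells), Ifnar1 at 17.5 against 17.4, Ifngr1 at 173 against 155 and Ifngr2 at 16.3 against 18.3, and 0 of the 5 receptor genes with enough UMIs were 2-fold apart (1.85% of all genes were higher and 12.5% lower). Ifnar2 was the 1 receptor of 5 above 0 among FAP/MP-marked cells. Ifngr1 had a log2 ratio of -0.30 there (-0.44 to -0.16), the median was -0.29, and the summed receptors stood at 261 against 297 CPM (-0.19, -0.30 to -0.07).

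Among the transducers, Irf9 and Stat2 were higher in the Ifi200-rich cells. Irf9, the DNA-binding part of the complex that acts at the ISRE, stood at 67.3 against 31.0 CPM (log2 ratio 1.12, 0.90 to 1.34), and Stat2 at 75.2 against 40.8 (0.88, 0.68 to 1.08). Among FAP/MP-marked cells the log2 ratios were 0.78 and 0.63, and of the 7 transducers 0 were 2-fold higher (1.19% of all genes) and 1 was 2-fold lower (5.98% of all genes). Jak1 stood at 225 against 145 CPM and Stat3 at 237 against 179, while Tyk2 was low on both sides, at 2.46 and 4.63 CPM. Irf7, the amplifier of type I interferon, was the single interferon regulatory factor of 6 past 2-fold (1.85% of all genes), at 35.4 against 10.9 CPM (log2 ratio 1.70, and 1.39 among FAP/MP-marked cells). Irf1 stood at 240 against 206 CPM and Irf3 at 23.3 against 28.2.

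The interferon-stimulated genes outside the rule were higher as a list. Of 37 genes listed 30 had enough UMIs and the others were too rare or not in the matrix; 16 of the 30 were at least 2-fold higher (1.85% of all genes) and 0 lower, and the median log2 ratio was 1.13, against -0.15 for all genes. Summed, the list stood at 3768 CPM in the Ifi200-rich and 2169 in the other cells (log2 ratio 0.80, 0.77 to 0.82). Ifitm3, which blocks virus entry, gave most of that sum with 2545 against 1454 CPM, and without it the sum was 1223 against 715 CPM (log2 ratio 0.77). Ifi27l2a and Bst2, the most abundant of the list after Ifitm3, differed less, at 137 against 123 and 126 against 95.4 CPM. Their log2 ratios were 0.15 and 0.40, and -0.31 (-0.45 to -0.16) and 0.20 among FAP/MP-marked cells. Ifi35 was also close on both sides, at 43.9 against 41.8 CPM. Rnf213 stood at 47.9 against 15.4, Slfn5 at 119 against 54.9, Parp14 at 37.1 against 13.7 and Ifit3 at 18.8 against 7.17 CPM. Isg15, a ubiquitin-like protein, stood at 124 against 100 CPM in all cells and had a log2 ratio of 1.34 among FAP/MP-marked cells. Among FAP/MP-marked cells 13 of 29 genes were 2-fold higher, beside 1.19% of all genes, and the summed log2 ratio was 0.49. There 24 of the 29 lay above 0.

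The guanylate-binding and immunity-related GTPases, apart from Irgm1 and Iigp1, stood at 166 against 69.9 CPM together (log2 ratio 1.24, 1.10 to 1.38). Of 8 with enough UMIs, 5 were at least 2-fold higher, beside 1.85% of all genes. Irgm2 stood at 21.9 against 6.86 CPM, Gbp2 at 60.9 against 28.1 and Gbp6 at 6.71 against 2.47, all past 2-fold, while Gbp7 stood at 18.3 against 11.2. Among FAP/MP-marked cells 4 of the 8 were past 2-fold, beside 1.19% of all genes. The ISRE letters were in 10 of the 10 GTPase genes of the list with a promoter and in 14 of 28 interferon-stimulated genes. They were in 5 of 16 class I genes, 3 of 8 chemokines, 0 of 4 FAP/MP markers and 3 of the 11 genes with a promoter among the 14 highest outside the rule, Ifit1 and Cxcl10 included, beside the 3.99% of all genes. The GAS letters were in 7 of 10 GTPase genes, 6 of 28 interferon-stimulated genes, 1 of 16 class I genes, 1 of 8 chemokines and 1 of the 11 highest genes, beside 9.55% of all genes.

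Class I antigen presentation differed less. The list of 19 genes stood at 3391 against 2436 CPM (log2 ratio 0.48), 1 of 18 genes with enough UMIs was 2-fold higher, beside 1.85% of all genes, and the median was 0.30. That gene was Tap1, the peptide transporter, at 28.4 against 10.2 CPM. B2m, the light chain of class I, stood at 1367 against 984 CPM and H2-D1 at 781 against 519. Among FAP/MP-marked cells the summed log2 ratio was 0.20 and the median 0.00. The sensors of foreign nucleic acid stood at 235 against 152 CPM, with Ifih1 at 17.7 against 6.94. The feedback genes stood at 493 against 397 CPM, with 0 of 4 past 2-fold (1.85% of all genes higher, 12.5% lower) and Socs3 as the most abundant at 387 CPM.

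**Figure D3:**
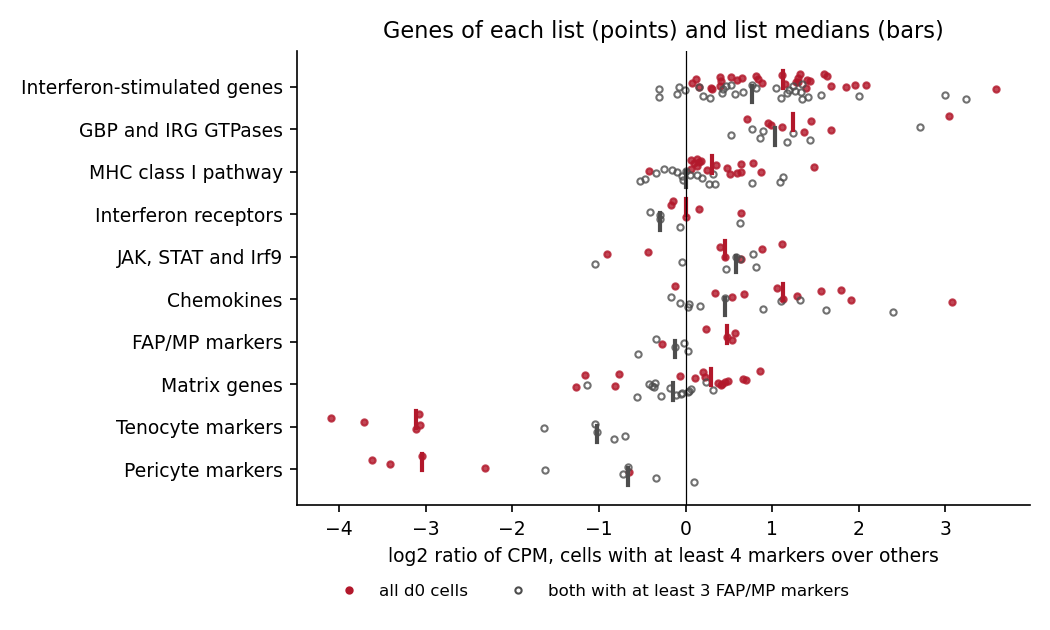
Log2 ratio of CPM in Ifi200-rich over other d0 cells (x axis) for each gene with at least 20 UMIs, by list (y axis). Red points use all d0 cells and open grey points cells with at least 3 FAP/MP markers on both sides; vertical bars are list medians, the grey ones over genes that reach 20 UMIs in those cells too. The interferon-stimulated genes and GTPases lie mostly right of 0 in both colours, the class I median moves from 0.30 to 0.00, and the FAP/MP median from 0.48 to -0.13.

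The Ifi200-rich cells were not uniform. They were divided by how many of Rtp4, Irgm1 and Iigp1, the 3 genes of the rule outside the Ifi200 family, had a UMI: 356 cells had 0, 404 had 1, 236 had 2 and 79 (7.35%) had all 3. The depth of these sets was alike, with medians of 4191, 3992, 3900 and 4121 UMIs. The set with 0 was thus chosen for lacking UMIs of 3 interferon-induced genes, and 0 UMIs at this depth does not show that a gene was silent. The interferon-stimulated genes without Ifitm3 summed to 797 CPM in the cells with 0 of the 3 (753 to 843) and to 715 CPM in the other cells (701 to 730). The other cells were not chosen in that way, and the 3100 of them that also had 0 UMIs of the 3 genes stood at 681 CPM (666 to 696). With Ifitm3 the sums were 2764 CPM (2681 to 2849) and 2169 CPM (2143 to 2194). Without Ifitm3 they stood at 1111 CPM with 1, 1479 with 2 and 2985 with all 3 (2802 to 3178). Limited to FAP/MP-marked cells and without Ifitm3, the set with 0 stood at 771 CPM (723 to 821), the other cells at 832 (810 to 854) and those of them with 0 of the 3 genes at 812 (788 to 836), so there this sum was not higher in the Ifi200-only cells. The GTPases were, with 103 CPM in the set with 0 (86.1 to 122) against 76.6 in the other cells (69.9 to 83.6), 70.2 in those of them with 0 of the 3 genes (63.4 to 77.6) and 376 CPM in the set with all 3, again among FAP/MP-marked cells.

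Ifit1 stood at 8.33 CPM in the other cells, 15.2 in the set with 0 of the 3 genes, 81.0 with 1, 134 with 2 and 488 with all 3. Oasl2 stood at 9.90, 29.0, 59.8 and 115 CPM in the same 4 sets, against 8.41 in the other cells. Rsad2, an antiviral enzyme, had 0 UMIs in the set with 0 and stood at 54.6 CPM in the set with 3. Isg15 stood at 46.2 CPM in the set with 0, at 100 CPM in the other cells and at 370 CPM in the set with 3. Among FAP/MP-marked cells Isg15 was alike in the set with 0, at 36.8 CPM (26.9 to 49.0), and in the other cells, at 41.0 (36.2 to 46.3), so the gap over all cells was not seen there. Slfn5 stood at 93.7 CPM in the set with 0 and 54.9 in the other cells, Gbp2 at 44.9 and 28.1, and Irf9 at 47.5 and 31.0. The intervals of these 3 genes overlapped among FAP/MP-marked cells. Slfn5 stood there at 91.9 CPM (75.9 to 110) against 79.5 (72.8 to 86.7), Gbp2 at 41.6 against 31.0 and Irf9 at 47.9 against 36.3.

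With 1000 UMIs per cell, 3.60% of the other cells (3.01 to 4.26%) held at least 3 interferon-stimulated genes. The share was 4.21% (2.38 to 6.85%) in the set with 0 of the 3 genes, 9.16% with 1, 18.6% with 2 and 38.0% (27.3 to 49.6%) with all 3. At least 5 such genes were found in 0 of 356, 4 of 404, 9 of 236 and 10 of 79 cells, and in 6 of 3557 other cells. Strong expression of the wider interferon genes thus lay in a small part of the Ifi200-rich cells.

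Not all differences followed this order. Chemokines summed to 11125 CPM already in the set with 0 of the 3 genes, against 5183 in the other cells, and to 16512 in the set with 3. Ccl2 stood at 2446 CPM with 0, 1885 with 1, 1535 with 2 and 2176 with 3. The other cells stood at 685 CPM. The interferon-inducible chemokines were also above the other cells in the set with 0, Cxcl10 at 218 against 79.0 CPM (233 against 98.2 among FAP/MP-marked cells) and Cxcl9 at 15.2 against 3.78 (16.0 against 6.08 among FAP/MP-marked cells). They stood at 900 and 142 CPM in the set with 3. Pi16, a marker of adventitial progenitors, stood at 1419, 1218, 726 and 570 CPM in the 4 sets, and Mme, a surface peptidase, at 53.4, 88.9, 90.7 and 100 CPM.

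**Figure D4:**
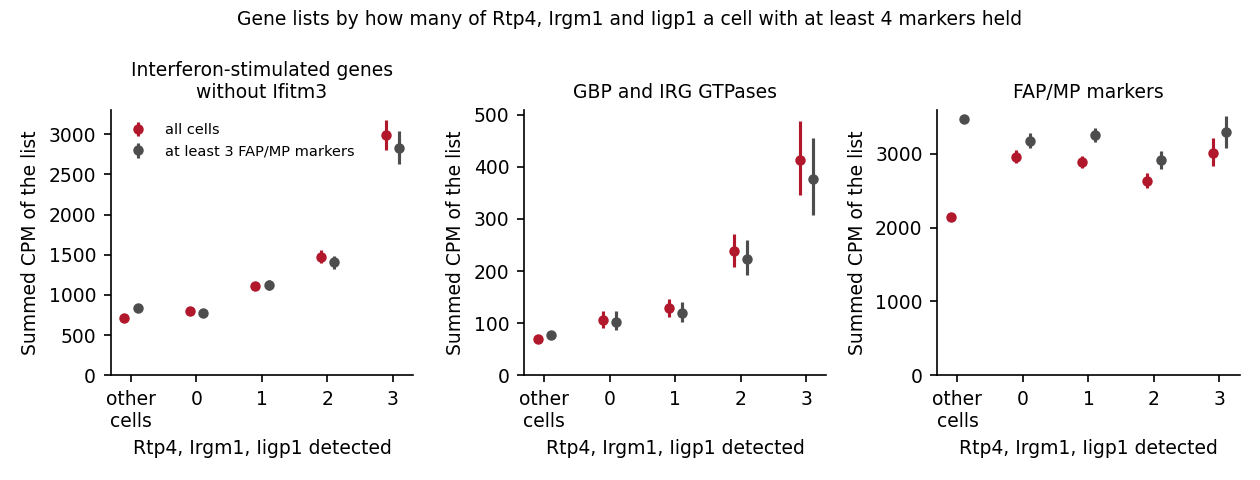
Summed CPM of 3 lists (y axes, each from 0) in the other d0 cells and in Ifi200-rich cells with 0, 1, 2 or 3 of Rtp4, Irgm1 and Iigp1 (x axis). Red points are all cells, grey points cells with at least 3 FAP/MP markers, and bars exact Poisson 95% intervals. The interferon-stimulated genes go from 797 to 2985 CPM between the sets with 0 and 3 genes while the FAP/MP markers stay between 2636 and 3013 CPM (red).

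The same genes were followed over the number of the 8 markers, threshold left aside. Ifit1 stood at 2.0 CPM in cells with 0 markers, 16.0 with 3, 39.9 with 4 and 366 with 7 or 8. Cxcl10 went from 47.5 CPM with 0 to 654 with 7 or 8, Irf7 from 5.3 to 73.9 and Gbp2 from 14.3 to 118. Isg15 did not follow this course: it stood at 141 CPM with 0 markers, 54.6 with 2, 73.2 with 4 and 303 with 7 or 8. Fmod went from 3176 CPM with 0 markers to 181 with 3, and it stood at 40.7 with 7 or 8.

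Cd34 and Pi16 peaked in the middle of that range. Cd34 stood at 318 CPM with 0 markers, 1037 with 2, 865 with 4 and 571 with 7 or 8. Pi16 stood at 398, 1922, 1390 and 473 CPM at the same numbers. Ly6a, or Sca1, stood at 344 CPM with 0 markers, 1383 with 2 and 1281 with 7 or 8, and Pdgfra stayed between 181 and 208 CPM from 2 markers up. Cxcl12 stood at 218 CPM with 0 markers, 482 with 2, 465 with 4 and 510 with 7 or 8. Smoc2, a matricellular protein, and Ccl11, eotaxin, stood at 341 and 469 CPM with 0 markers and at 1530 and 3232 with 7 or 8.

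Gene lists of other progenitor groups of uninjured muscle gave mixed ratios between the Ifi200-rich and the other cells. The 5 FAP/MP markers summed to 2867 against 2147 CPM in all cells (log2 ratio 0.42), but to 3154 against 3475 CPM among FAP/MP-marked cells (-0.14). With 1000 UMIs drawn per cell before the rule, the log2 ratio of these markers was -0.055 in all cells. The 10 genes of the Pi16 and Dpp4 progenitors had a summed log2 ratio of 0.19, and of -0.34 (-0.37 to -0.31) among FAP/MP-marked cells, where 0 of the 10 lay above 0. The 3 genes Hsd11b1, Cmklr1 and Mme had 0.75 in all cells and -0.03 (-0.14 to 0.08) among FAP/MP-marked cells, Mme itself 1.35 and 0.72. Gdf10, Hhip and Inmt had 0.44 and -0.05 (-0.18 to 0.08) in the same order. Meox1, Cyp2f2 and Dkk2 had -0.20 and -0.44 (-0.62 to -0.26), and Dlk1, Trf and Saa1 had 0.18 and -0.75 (-0.92 to -0.58). Matrix genes stood at 36231 against 39957 CPM, with Col1a1 at 1799 against 4314 and Col6a3 at 637 against 393. Complement genes had a summed log2 ratio of 0.41 and of 0.04 among FAP/MP-marked cells. C4b stood at 35.4 against 11.0 CPM.

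Genes of the dissociation stress response were close on both sides as a sum, but single genes went both ways. The 14 immediate early and heat shock genes summed to 23794 against 21293 CPM, a log2 ratio of 0.16, with 1 of 14 genes at least 2-fold higher, beside 1.85% of all genes. That gene was Dnajb1, a heat shock cochaperone, at 2871 against 1143 CPM. Hspa1a was the most abundant, at 6473 against 4264 CPM (log2 ratio 0.60, and 0.46 among FAP/MP-marked cells), and Hspa1b had 0.70 and 0.46. Fos (-0.61), Dusp1 (-0.73), Nr4a1 (-0.41) and Ier2 (-0.38) were lower in the Ifi200-rich cells. In all, 8 of the 14 genes lay above 0. The proliferation genes stood at 219 against 238 CPM.

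In the 4 libraries after injury the rule found a smaller share of cells at an equal number of UMIs per cell. The 8 genes were chosen in the d0 library, so a high share there is no finding of its own. Those libraries were deeper, with medians of 15688 to 34949 UMIs per cell against 3640 at d0, so the share without thinning (11.3 to 38.4%, and 23.2% at d0) cannot be compared. With 1000 UMIs per cell, the share was 5.20% at d0 and 0.0895% (0.0291 to 0.209%) at day 3 after fracture. It was 0.177% in the library labelled day 5 after fracture, 0.613% (0.281 to 1.16%) in the library labelled day 3 after polytrauma and 0.0586% at day 5 after polytrauma. With 2000 UMIs per cell, where 744 d0 cells were too shallow, the d0 share was 12.9% and the highest of the others 2.92%. Within d0 the share at 1000 UMIs was itself lower in deeper cells, 1.34% at 6000 to 10000 UMIs. Drawing equal UMIs thus did not make cells of unequal depth alike, and the part of depth in these shares was not tested. The assignment of the libraries labelled day 5 after fracture and day 3 after polytrauma is in doubt, because the number of barcodes in the latter matches the cells described elsewhere for the former. The library labelled day 5 after fracture shared 525 barcodes with d0, 508 with day 3 after fracture and 0 with either polytrauma library. That labelled day 3 after polytrauma shared 944 with day 5 after polytrauma and 0 with each of the others. What this means for the labels was not tested. No direction over time is drawn from the libraries in doubt. Each library is a separate pool of mice, so library and condition cannot be told apart.

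Summed over all cells, the 8 genes stood at 1324 CPM at d0 (1307 to 1341) and at 218 CPM at day 3 after fracture, 330 and 372 CPM in the 2 libraries in doubt and 181 CPM at day 5 after polytrauma. These values, like the thinned shares, are relative to all RNA counted in a cell. Per cell, the 8 genes gave 4.98 UMIs at d0, 3.89 at day 3 after fracture, 5.49 and 13.1 in the 2 libraries in doubt and 3.06 at day 5 after polytrauma. Ifi205 gave 1.51 UMIs per cell at d0 and 1.45 at day 3 after fracture, Ifi211 gave 1.01 and 1.03, and Ifi204 gave 0.554 and 0.832. The other genes of the rule gave fewer there: Ifi207 0.562 and 0.125, Ifi203 0.704 and 0.320, Rtp4 0.144 and 0.0694, Iigp1 0.204 and 0.0417, and Irgm1 0.288 and 0.0213. At day 5 after polytrauma Ifi205 gave 0.410, Ifi211 0.608 and Ifi204 0.937. The lower CPM of Ifi211 and Ifi204 at day 3 after fracture thus went with more UMIs in all per cell and not with fewer of their own. RNA content and depth of sequencing cannot be told apart. Ifi205 stood at 402 CPM at d0 and between 24.2 and 80.9 CPM in the others. Irgm1 stood at 76.6 CPM at d0 and at 1.19 CPM at day 3 after fracture. Iigp1 made an exception, with 54.3 CPM at d0 and 56.6 CPM in the library labelled day 3 after polytrauma, as did Ifit1 with 31.9 and 55.4 CPM. The wider interferon genes were not lower in every injured library. With 1000 UMIs per cell, at least 3 interferon-stimulated genes were held by 5.48% of cells at d0, 1.97% at day 3 after fracture, 7.0% and 9.13% in the libraries labelled day 5 after fracture and day 3 after polytrauma, and 3.44% at day 5 after polytrauma. The interferon-stimulated list summed to 2579 CPM at d0 and to 2284, 2920, 1948 and 2114 CPM in the same order. Without Ifitm3, which stood at 1019 to 2242 CPM, it summed to 845 CPM at d0 and to 282, 677, 929 and 478 CPM. The GTPases summed to 94.5, 12.5, 29.1, 109 and 37.2 CPM. Among cells with at least 2 FAP/MP markers after thinning, the share that met the rule was 5.73% of 2111 at d0, 0.493% of 1014 at day 3 after fracture, 0.298% of 2011 and 1.25% of 399 in the 2 libraries in doubt, and 0.127% of 2364 at day 5 after polytrauma. The lower share at equal UMIs was therefore also found among cells with progenitor markers.

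**Figure D5:**
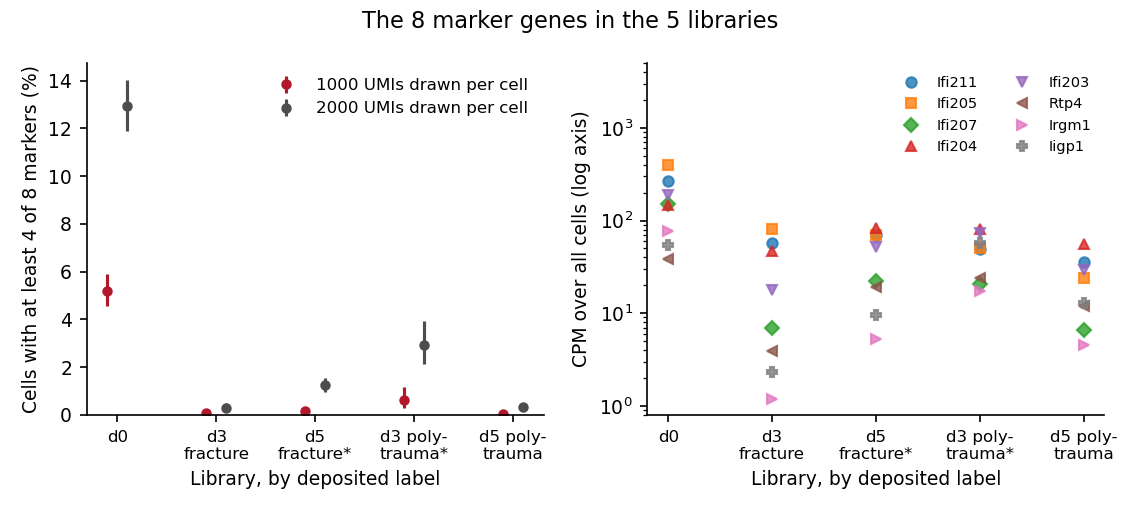
Left, percent of cells with at least 4 of the 8 genes (y axis) in the 5 libraries by deposited label (x axis), with 1000 (red) or 2000 (grey) UMIs drawn per cell and exact 95% intervals. Right, CPM of each gene over all cells on a log axis. Asterisks mark the 2 libraries whose labels are in doubt; d0 has the highest share at both depths, 5.20% and 12.9%.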

How the data were processed

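Cells were sorted and sequenced by the 10x Genomics 3' method, and per the file header the authors made the matrices with Cell Ranger (3.1.0). The deposited values are raw UMI counts per gene and cell, not normalized; the submitters' notes also list Seurat (3.1.2). From these counts, in Python (3.11.15), cells were filtered and chosen by the stated rule. The counts of a set of cells were summed per gene and given as CPM of its UMIs. Intervals were 95%: Clopper-Pearson for shares, exact Poisson for CPM and the exact conditional binomial for CPM ratios. The ratio and its interval were tested on simulated data. Thinning drew 1000 UMIs per cell without replacement (seed 1).

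Genes named were the 8 of the rule, the 14 with the highest lower bound and the 10 with the lowest upper bound of the log2 ratio (at least 20 UMIs, detected in at least 10% of the cells on the higher side, without mitochondrial and ribosomal protein genes), and the leading genes and the pathway's receptors and factors of each list. Other genes were named after their values were seen. The cells, their rule and the gene lists were chosen with earlier results of these data known. No doublet caller was run; the 5% of cells with the most UMIs (over 6738) were left out as an alternative. Of 31055 gene identifiers, 30934 were found in GENCODE M21.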

Additional observations from a re-analysis of the deposited data

How the results depend on the processing

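Each condition had 1 library of 2 pooled mice, and depth limited detection: Ifit1, at 100 CPM, was found in 13.5% of the Ifi200-rich cells with all UMIs and in 6.98% with 1000 UMIs per cell. No paired analysis was possible because no condition had 2 libraries. The cause of the changes below was not tested.

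The share of cells that met the rule was 35.3% with at least 3 markers, 12.9% with at least 5, 25.5% at a minimum of 2000 UMIs and 5.20% after thinning to 1000 UMIs. The FAP/MP list changed direction, from a log2 ratio of 0.42 to -0.055 after thinning before the rule and to -0.14 when both sides were limited to cells with at least 3 FAP/MP markers. It was 0.59 with at least 3 markers, 0.26 with at least 5, 0.38 without the 5% of cells with the most UMIs, 0.31 as a mean over cells and 0.56 with the median gene ratio as baseline. The interferon-stimulated list (0.80) was 0.76 with at least 3 markers, 0.90 with at least 5, 1.03 after thinning, 0.49 among FAP/MP-marked cells, 0.75 as a mean over cells and 0.94 with the median baseline. The GTPase list (1.24) was 1.42 with at least 5 markers, 1.82 after thinning, 1.02 among FAP/MP-marked cells and 1.39 with the median baseline. The class I list (0.48) was 0.20, 0.45 and 0.62 among FAP/MP-marked cells, as a mean over cells and with the median baseline.

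Genes at least 2-fold higher and lower (227 and 1535) numbered 592 and 2342 after thinning, 132 and 665 among FAP/MP-marked cells, 1360 and 4842 with no minimum of UMIs and 112 and 736 with at least 100. With the median baseline 360 were higher. For cells chosen by the other 7 genes, thinning gave log2 ratios of 2.20 for Ifi205, 2.10 for Ifi207, 2.49 for Ifi204, 2.79 for Rtp4, 2.58 for Irgm1 and 3.12 for Iigp1. At 2000 UMIs the share was 12.9% at d0, 0.298% at day 3 and 1.24% in the library labelled day 5 after fracture, 2.92% in that labelled day 3 after polytrauma and 0.347% at day 5 after polytrauma. The interferon-stimulated genes without Ifitm3 in the Ifi200-only cells (log2 ratio 0.16 over the other cells) had 0.23 against other cells with 0 UMIs of Rtp4, Irgm1 and Iigp1, -0.11 among FAP/MP-marked cells and -0.075 with both limits, all chosen after seeing the data. Leaving out shared barcodes moved none of the lists or shares beyond their intervals; for the other libraries this alternative was chosen after seeing the data. Of the 24 genes named as higher or lower, 21 stayed past 2-fold among FAP/MP-marked cells and 24 under 8 other alternatives. After thinning 21 of 22 did, the exception being Phf11d with a log2 ratio of 0.88. Pln and Rbpms2 had no UMI left in the chosen cells and gave no ratio. Of the genes 0 reversed.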
